A study of Mus musculus with 6 samples.

Results

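The epidermal differentiation complex is a cluster of genes that encode proteins of the outer layers of stratified epithelia. Its small proline-rich (SPRR) and late cornified envelope (LCE) proteins, together with involucrin and loricrin, are cross-linked by transglutaminases into the cornified envelope, the tough shell of a terminally differentiated keratinocyte. Its S100 proteins are small calcium-binding proteins, several of which are made in many simple epithelia and in leukocytes, whereas filaggrin and its relatives join an S100 domain to a long repeat. A cornified envelope is not part of the normal mammary gland, but squamous differentiation is a recognized form of mammary tumor growth. The members were found by name, as each gene of the expression table whose symbol marks it as an SPRR, LCE or S100a gene or as *Crct1*, *Ivl*, *Lor*, *Flg*, *Flg2*, *Hrnr* or *Tchh*. This gave 58 of the 38244 gene names, on 57 entries because *Sprr2a1* and *Sprr2a2* share 1. All 58 are on mouse chromosome 3 in GRCm38, between positions 90511034 and 93564643 in the GENCODE M21 annotation.

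The study compared normal mammary epithelial cells in primary culture (MEC, 3 preparations) with 3 mammary tumor cell lines (MEKO), each sequenced as 1 RNA library, all of strain C57/Bl6J. The MEC have the genotype WAPCre+ and carry Cre without the gene deletions. Each preparation pooled cells of 3 to 5 virgin females that were 10 to 12 weeks old, and RNA was taken from the first culture on collagen I. The MEKO lines, numbered 199, 233 and 336, have the genotype Mapk8KO Mapk9KO Cre+ in which both genes for the JNK protein kinase are labelled as deleted. *Wap-Cre* acts in the mammary epithelium, and a line descends from tumor cells of its mouse that passed 2 times on collagen I and then grew on standard dishes. The study took tumors of this genotype from parous mice. The effects of the deletions, of tumor growth, of culture history and of donor age and parity cannot be told apart in this design. Neither group received a treatment. The question was how expression in JNK-deficient tumor cells differs from that in normal mammary epithelium.

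The deposited values are FPKM, which are fragment counts scaled to transcript length and library size, so that levels can be compared between genes. The number of reads is unknown, and the smallest values put the depth of the libraries between 0.92 and 1.30 times that of MEC 1. *Mapk8* was 19.2 to 25.1 FPKM in MEC and 1.37 to 5.93 in MEKO, and *Mapk9* was 21.5 to 24.4 and 3.07 to 7.62, so both fell (adjusted p = 0.0146 and 0.0122 in limma) without reaching 0. FPKM per gene cannot show whether the remaining signal comes from exons outside the deleted parts. Epithelial markers were present in each library, with *Epcam* between 519 and 549 FPKM in MEC and between 128 and 252 in MEKO. Differences were tested with limma on log2(FPKM + 1) for the 12461 entries with a mean of at least 1 FPKM over the 6 libraries. A gene is said to have risen or fallen, or to be called, where the p adjusted by Benjamini-Hochberg over these entries was under 0.05 and the log2 fold change was beyond 0.75.

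The promoters of 6 members are shown because these genes stand for the patterns described in the following paragraphs. *Sprr1a*, *Ivl* and *Lce1h* fell in MEKO, *Sprr1b* was high in line 199, *Sprr2h* was high in lines 199 and 336, and *Sprr2a3* exceeded MEC in each line. The selection was made after the values were seen. Each sequence is the 250 bases before the RefSeq start on GRCm38.p6, read 5′ to 3′ on the strand of the gene. Capitals mark TGANTCA, the motif of the AP1 factors formed by Jun and Fos proteins, and TATAAA, the core of the TATA box.

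Sprr1a (chr3:92485882-92486131, minus strand): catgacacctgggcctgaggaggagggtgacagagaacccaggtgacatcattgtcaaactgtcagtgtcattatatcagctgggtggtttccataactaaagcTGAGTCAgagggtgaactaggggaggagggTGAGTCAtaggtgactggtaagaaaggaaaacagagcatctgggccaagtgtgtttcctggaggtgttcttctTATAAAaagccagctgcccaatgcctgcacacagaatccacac
Sprr1b (chr3:92438780-92439029, minus strand): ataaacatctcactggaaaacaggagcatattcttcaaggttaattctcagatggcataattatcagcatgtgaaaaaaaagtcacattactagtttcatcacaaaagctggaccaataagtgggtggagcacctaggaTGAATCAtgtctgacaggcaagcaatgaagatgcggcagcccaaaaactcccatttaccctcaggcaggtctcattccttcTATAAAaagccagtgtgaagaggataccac
Sprr2h (chr3:92385435-92385684, plus strand): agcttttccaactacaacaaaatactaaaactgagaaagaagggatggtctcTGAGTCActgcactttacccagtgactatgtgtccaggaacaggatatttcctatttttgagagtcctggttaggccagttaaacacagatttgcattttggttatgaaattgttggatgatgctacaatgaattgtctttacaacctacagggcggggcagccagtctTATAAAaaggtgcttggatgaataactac
Sprr2a3 (chr3:92285054-92285303, plus strand): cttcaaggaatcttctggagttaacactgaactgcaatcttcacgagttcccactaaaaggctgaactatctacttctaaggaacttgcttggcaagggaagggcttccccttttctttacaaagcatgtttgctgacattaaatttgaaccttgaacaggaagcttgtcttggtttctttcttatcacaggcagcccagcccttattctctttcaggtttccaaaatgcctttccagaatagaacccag
Ivl (chr3:92573736-92573985, minus strand): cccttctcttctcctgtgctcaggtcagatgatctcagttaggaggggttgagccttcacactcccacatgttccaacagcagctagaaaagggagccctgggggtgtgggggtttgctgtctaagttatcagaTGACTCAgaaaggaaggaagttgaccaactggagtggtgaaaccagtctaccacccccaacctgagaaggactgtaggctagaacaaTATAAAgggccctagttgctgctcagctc
Lce1h (chr3:92765066-92765315, minus strand): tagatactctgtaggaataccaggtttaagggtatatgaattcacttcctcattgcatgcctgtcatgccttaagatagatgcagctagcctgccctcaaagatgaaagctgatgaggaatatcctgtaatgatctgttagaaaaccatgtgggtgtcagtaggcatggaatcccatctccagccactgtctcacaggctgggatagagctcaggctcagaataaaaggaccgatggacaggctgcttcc

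*Sprr1a* held TGANTCA at -146 and -116 and TATAAA at -43, counted to the leftmost base of the motif from the start. *Sprr1b* held them at -111 and -30, *Sprr2h* at -198 and -29 and *Ivl* at -116 and -29. *Sprr2a3* and *Lce1h* held neither. The window of *Sprr2a3* ends at 92285303, before its GENCODE start at 92285417, so the bases next to that start were not searched. TGANTCA, which reads the same on both strands, was in 9 of the 14 SPRR promoters in the RefSeq table, in both of the other envelope gene promoters (*Ivl* and *Lor*), in 2 of 4 fused S100 promoters, in 2 of 15 S100 promoters and in 0 of 20 LCE promoters. Among 32851 promoters of the same length it was in 6.75%. TATAAA, searched on both strands, was in 10 of 14 SPRR promoters and 4 of 20 LCE promoters, against 12.4% of all promoters. Among the LCE matches, that of *Lce1d* was at -30 and that of *Lce1m* at -29. Those of *Lce6a* at -218 and *Lce3e* at -243 were on the opposite strand. The letters of the motifs do not overlap. The SPRR2 promoters with matches were alike in layout, with TGANTCA first met between -198 and -193 and TATAAA at -29. A match describes these letters only. Members that fell and members that were higher in MEKO are found both with and without TGANTCA.

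Members were expressed over a wide range. An FPKM over 1 was found for 16, 18 and 15 of the 57 entries in MEC 1, 2 and 3, and for 22, 18 and 16 entries in lines 199, 233 and 336. In all, 28 entries exceeded 1 in at least 1 library, of which 14 did so in both groups, 4 in MEC only and 10 in MEKO only. Another 17 entries were above 0 without passing 1, and 12 were listed at 0 in each library. Of the 28 expressed entries 24 were tested. *S100a2*, *Lor*, *Sprr2d* and *Tchh* had a mean under 1.

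In the test, 4 of the 24 members fell in MEKO (*S100a1*, *Sprr1a*, *Ivl* and *Lce1h*), against a background of 7.26% of all tested entries. By limma 0 members rose, where the background was 2.64%. In either direction the background of called entries was 9.9%. At an unadjusted p under 0.05 in limma, with no fold threshold, 3 members were higher and 9 lower. The background at that p was 3509 of the 12461 tested entries, both directions together. The 2 groups did not overlap for 13 members (background 37.2%), 4 of them higher in MEKO (background 18.5%) and 9 lower (background 18.7%). The median log2 fold change of the members was -0.39, against 0.01 for all tested entries. The filter bears on these counts. For 7 tested members the MEC mean was under 1 and for 5 the MEKO mean was under 1, so that they were tested because the other group was high, and of the 12 with both means at least 1, 2 fell and 4 did not overlap, each lower in MEKO. In bulk RNA, fewer cells that express a gene and less RNA per cell cannot be told apart.

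**Figure D1:**
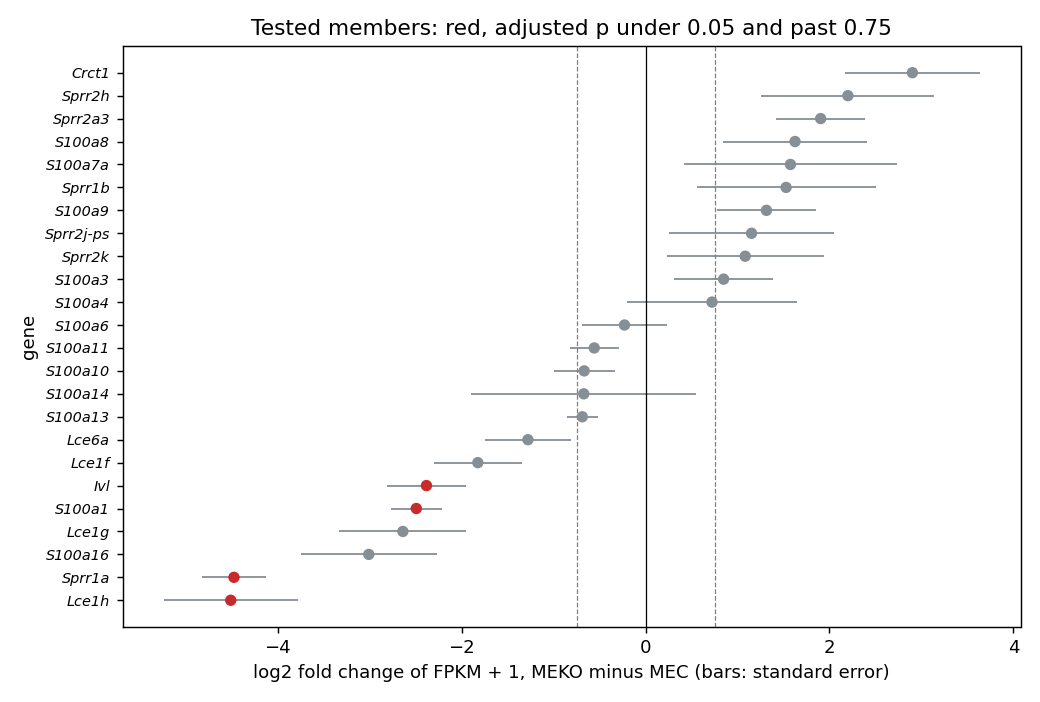
Log2 fold change of FPKM + 1 (x axis, MEKO minus MEC, bars show the standard error) for each of the 24 tested members (y axis). The 4 red points are the members that fell, and the points on the right, from *S100a3* to *Crct1*, are grey because none of them passed the adjusted p.

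*Sprr1a* encodes a cross-linked precursor of the cornified envelope and was the most abundant SPRR gene in MEC. Its FPKM was 117, 297 and 215 in MEC 1, 2 and 3 and 7.74, 6.69 and 9.24 in lines 199, 233 and 336. Each line was far below each MEC preparation, and the lines lay close together. The mean was 26.6 times higher in MEC, and the log2 fold change was -4.48 ± 0.34 (SE), with an adjusted p of 0.00168 in limma.

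Summed over all 15 SPRR entries, the level was 119, 298 and 216 FPKM in MEC and 67.7, 11.8 and 30.6 in lines 199, 233 and 336. *Sprr1a*, which held most of the sum in MEC, was set apart after the values were seen. The other SPRR genes, taken as a sum, were higher in each line than in MEC and differed from line to line. In line 233 nearly all of the sum came from *Sprr2a3*. Summed over the 14 SPRR entries other than *Sprr1a*, the level was 1.53, 1.41 and 0.814 FPKM in MEC and 59.9, 5.14 and 21.3 in lines 199, 233 and 336. *Sprr2a3* was the SPRR2 gene present in each line, at 0.881, 1.31 and 0.666 in MEC and 3.31, 4.72 and 14.4 in lines 199, 233 and 336. With a MEC mean of 0.953 FPKM, *Sprr2a3* passed the filter on the mean through MEKO. The groups did not overlap, and the log2 fold change of 1.90 ± 0.49 had an adjusted p of 0.0578 in limma, just outside the threshold. It passed under 5 of the 13 alternatives in which it was tested, among them those without line 199 (adjusted p = 0.0263) and without line 336 (0.0473). Of the 75-base stretches in its transcripts, 47.5% are also in *Sprr2a1* or *Sprr2a2*, so that its reads could be divided among these genes.

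*Sprr2h* was listed at 0 in the 3 MEC libraries and was 15.4 FPKM in line 199, 0.0348 in line 233 and 4.73 in line 336. It was high in lines 199 and 336 and near 0 in line 233, and its adjusted p was 0.189. Without line 233 it was 0.0213 (limma). *Sprr1b*, an envelope precursor closely related to *Sprr1a*, was 0.510, 0.101 and 0.148 in MEC and 16.5, 0.0636 and 1.47 in lines 199, 233 and 336. The level in line 233 was under each MEC value, so the groups overlapped (adjusted p = 0.348 in limma). No 75-base stretch of *Sprr2h*, *Sprr1b* or *Sprr1a* is in a transcript of another gene.

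The other 3 expressed SPRR2 entries were over 1 in line 199 alone. *Sprr2k* was 8.21 FPKM there and at most 0.0926 elsewhere, *Sprr2d* was 5.26 and at most 0.119, and *Sprr2j-ps* was 9.21 and at most 0.124. Line 199 was thus apart from the other 5 libraries in *Sprr1b* and in these entries. The SPRR2 entries together reached 43.3 FPKM in line 199, 5.08 in line 233 and 19.8 in line 336, against 0.666 to 1.31 in MEC. Of the sum in line 233, *Sprr2a3* gave 4.72. The highest value of an SPRR entry that never passed 1 was 0.937, for *Sprr2e* in line 199.

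Involucrin, encoded by *Ivl*, is a scaffold on which the envelope is built. *Ivl* was 6.28, 12.8 and 3.37 FPKM in MEC and 0.708, 0.237 and 0.469 in lines 199, 233 and 336. With a MEKO mean of 0.471 FPKM, *Ivl* passed the filter on the mean through MEC, so its direction was set by the filter. Each line was below each MEC preparation, by 15.9 times in the mean. The log2 fold change was -2.38 ± 0.43 with an adjusted p of 0.0229 in limma. The call was lost without MEC 1, MEC 2, line 233 or line 336, where the adjusted p was 0.0955, 0.0639, 0.0597 and 0.0561.

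The LCE genes, late components of the envelope, were expressed in MEC more than in MEKO. Of 21 entries 4 were over 1, each in at least 1 MEC preparation, 8 were listed at 0 throughout, and the others were at most 0.542. *Lce1h* was 52.1, 69.9 and 8.62 FPKM in MEC and 0.244, 0.518 and 0.619 in lines 199, 233 and 336. MEC 3 was the lowest preparation and still well above each line. With a MEKO mean of 0.460 FPKM, *Lce1h* passed the filter through MEC, so its direction was set by the filter. The mean was 94.6 times higher in MEC, and the log2 fold change of -4.51 ± 0.73 had an adjusted p of 0.0164, which became 0.0765 without MEC 1 and 0.0645 without MEC 2 (limma).

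*Lce1g* had the same order of MEC preparations, at 14.7, 26.2 and 2.85 FPKM in MEC and 0.870, 1.21 and 0.642 in MEKO (adjusted p = 0.0611 in limma). *Lce1f* was 2.95, 5.4 and 0.758 in MEC and listed at 0 in each line (adjusted p = 0.0628 in limma). *Lce6a* was 0.532, 4.08 and 1.22 in MEC and at most 0.140 in MEKO (adjusted p = 0.138 in limma). The groups did not overlap for any of these 3 genes, and MEC 2 was the highest preparation for each of them. All 3 had a MEKO mean under 1 and passed the filter through MEC, so their direction was set by the filter. Without MEC 3 the adjusted p of *Lce1g* was 0.0127 and that of *Lce1f* 0.0276 (limma). Summed LCE expression was 70.5, 106 and 14.1 FPKM in MEC and 1.41 to 2.56 in MEKO. The LCE1 genes share short stretches of sequence, 5.22% of the 75-base stretches for *Lce1h*, 4.94% for *Lce1g* and 4.59% for *Lce1f*.

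*Crct1*, which encodes a cysteine-rich protein and lies between most LCE genes and *Flg*, had the largest log2 fold change upward. It was 0.266 and 0.904 FPKM in MEC 1 and 2, listed at 0 in MEC 3, and 2.05, 17.7 and 16.7 in lines 199, 233 and 336. Each line was above each MEC preparation, and *Crct1*, with a MEC mean of 0.390 FPKM, passed the filter on the mean through MEKO. Lines 233 and 336 were higher than line 199, the reverse of the order seen for *Sprr1b* and *Sprr2k*. The log2 fold change was 2.90 ± 0.73 with an adjusted p of 0.0560, and without line 199 it was 3.76 with an adjusted p of 0.00226 (limma). *Lor*, which encodes loricrin, the main protein of the epidermal envelope, was 0.276 FPKM in MEC 1, listed at 0 in MEC 2 and 3, and 0.703, 1.71 and 1.17 in MEKO. The groups did not overlap, but the mean was under the filter. With no expression filter *Lor* was called higher, with a log2 fold change of 0.99 and an adjusted p of 0.049 in limma. *Tchh*, encoding trichohyalin of the hair follicle sheath, was 0.201 to 0.345 in MEC and 1.20, 2.32 and 0.183 in lines 199, 233 and 336, and *Flg*, *Flg2* and *Hrnr* were at most 0.0315 in each library.

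**Figure D2:**
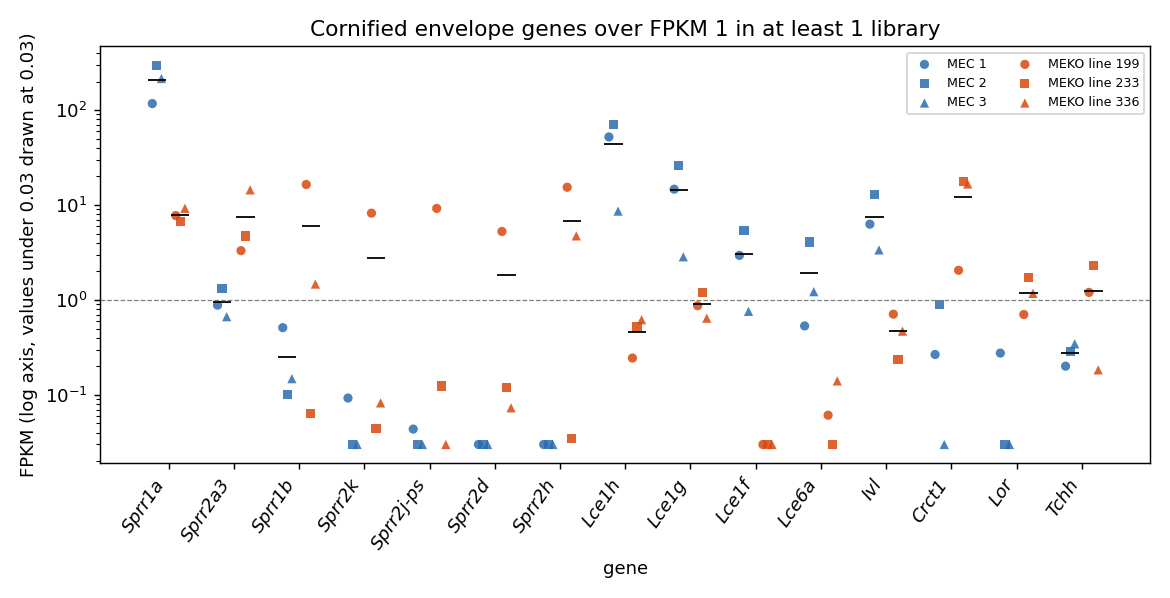
FPKM (y axis, log scale, values under 0.03 including 0 drawn at 0.03) of the 15 SPRR, LCE, other envelope and fused S100 genes over 1 in at least 1 library (x axis). Blue points are the 3 MEC libraries, orange points the 3 MEKO lines, black bars the group mean where no library was at 0, and the dashed line marks 1 FPKM. *Sprr1a*, the LCE genes and *Ivl* lie lower in MEKO, and the SPRR2 genes spread over a wide range among the lines.

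S100 genes held most of the expression of the complex, 5677, 5567 and 3321 FPKM in MEC and 4105, 4246 and 2237 in lines 199, 233 and 336. Most of this came from 3 genes. *S100a11*, whose protein is also cross-linked into the envelope, was 2883, 2844 and 1892 FPKM in MEC and 2070, 1887 and 1243 in MEKO. *S100a6*, or calcyclin, was 1841, 1692 and 832 in MEC and 1247, 1915 and 674 in MEKO. *S100a10*, the partner of annexin A2, was 550, 586 and 334 in MEC and 455, 236 and 249 in MEKO. Their groups overlapped and the adjusted p was 0.228, 0.776 and 0.245 in limma, with log2 fold changes of -0.56 ± 0.27, -0.23 ± 0.46 and -0.67 ± 0.33. The estimate for *S100a6* was 0.17 without line 336. Of the 75-base stretches of *S100a11*, 37.8% are also in the pseudogenes *Gm12854* and *Gm7665*.

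*S100a1*, best known as a regulator of calcium handling in muscle, was the S100 gene that fell. It was 55.3, 53.6 and 71.7 FPKM in MEC and 10.5, 6.47 and 13.6 in lines 199, 233 and 336. The groups were well apart, and the mean was 5.91 times higher in MEC. The log2 fold change was -2.49 ± 0.28 with an adjusted p of 0.00478 in limma, and the call remained under the 14 alternatives, as did that of *Sprr1a*.

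*S100a16* was 212, 235 and 137 FPKM in MEC and 73.7, 18.9 and 7.94 in MEKO. Each line was lower than MEC, line 336 most and line 199 least, and the log2 fold change of -3.01 ± 0.74 had an adjusted p of 0.0521 in limma (0.00429 without line 199). *S100a13*, which takes part in the release of FGF1, was 15.9, 17.9 and 15.8 in MEC and 8.17, 11.2 and 10.5 in MEKO (log2 fold change -0.69 ± 0.17, adjusted p = 0.0526 in limma). The groups did not overlap, but the difference was under the fold threshold. *S100a14*, next to *S100a16*, was 97.4, 116 and 30.8 in MEC and 137, 104 and 5.25 in lines 199, 233 and 336. Only line 336 was outside the MEC range on the low side, the adjusted p was 0.75 in limma, and the log2 fold change of -0.67 ± 1.23 became 0.75 without line 336.

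The remaining S100 genes were high in particular lines. *S100a7a*, a mouse relative of psoriasin, was 2.01, 2.15 and 0.604 FPKM in MEC and 4.95, 43.4 and 0.523 in lines 199, 233 and 336. *S100a4*, a gene widely used as a mark of motile and fibroblast-like cells, was 15.3, 15.5 and 4.22 in MEC and 74.5, 9.13 and 7.24 in MEKO. *S100a3*, a protein of hair cuticle cells, was 1.75, 2.33 and 1.15 in MEC and 4.79, 8.19 and 1.16 in MEKO. The line that stood highest was 233 for *S100a7a* and *S100a3* and 199 for *S100a4*. The adjusted p values were 0.412, 0.641 and 0.344 in limma, and the log2 fold change of *S100a4*, 0.72 ± 0.92, was -0.29 without line 199 and -0.23 with sample weights. Of the 75-base stretches of *S100a4*, 44.8% are also in the overlapping gene *Gm42674*. *S100a2* was at most 0.545 in MEC and 1.46, 2.32 and 0.163 in MEKO, and *S100a5* was listed at 0 throughout.

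*S100a8* and *S100a9* encode the 2 chains of calprotectin, made in quantity by neutrophils and by stressed epithelium. *S100a8* was 4.22, 1.54 and 1.75 FPKM in MEC and 13.2, 2.02 and 24.0 in lines 199, 233 and 336, so lines 199 and 336 were above each MEC preparation and line 233 was within their range. *S100a9* was 0.0564 in MEC 1, listed at 0 in MEC 2 and 3, and 4.85, 0.907 and 0.458 in MEKO. The highest *S100a8* was in line 336 and the highest *S100a9* in line 199. Adjusted p values were 0.231 and 0.173 in limma, and that of *S100a8* was 0.0312 without line 233. The leukocyte markers, of which 11 of 12 were in the table and *Elane* was listed at 0 throughout, summed to 22.5 to 43.1 in MEC and to 2.26, 3.20 and 24.9 in lines 199, 233 and 336. *Ptprc* was at most 0.0146 in MEKO, *Lyz2* was at most 0.0182, and *Cd68* was 23.5 in line 336. *Ly6g*, a neutrophil marker, was 0.569 in line 199 and listed at 0 elsewhere. The part of these cells in the *S100a8* and *S100a9* levels was not tested.

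**Figure D3:**
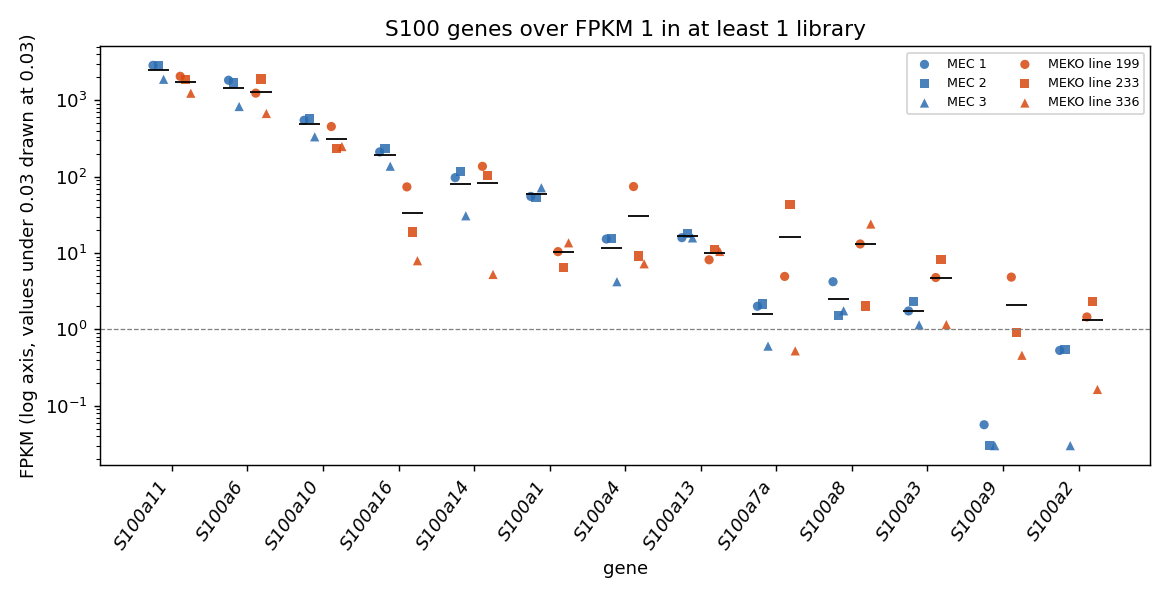
FPKM (y axis, log scale, values under 0.03 including 0 drawn at 0.03) of the 13 S100 genes over 1 in at least 1 library (x axis, ordered by the mean of the 6 libraries). Blue points are MEC, orange points are MEKO lines and black bars are group means where no library was at 0. The groups mix for the 3 most abundant genes and lie apart for *S100a16*, *S100a1* and *S100a13*, and single lines stand high for *S100a7a* and *S100a4*.

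Each line was then set against the MEC mean as a log2 ratio of FPKM + 1. A member was said to have moved where the ratio exceeded 1 in size and the line lay outside the range of the 3 MEC libraries, a description with no test, since each line is 1 library. In line 199, 11 of the 24 tested members moved higher (background 7.5%) and 8 lower (background 12.6%). In line 233, 4 moved higher (background 6.16%) and 9 lower (background 14%). In line 336, 4 moved higher (background 6.57%) and 11 lower (background 14.7%). The filter bears on these counts as well. The 7 members with a MEC mean under 1 were tested because MEKO was high. The 5 with a MEKO mean under 1 were tested because MEC was high, so the counts are partly set by the filter. The median ratio of the members was 0.32, -0.28 and -0.87 in lines 199, 233 and 336, and that of all tested entries was within 0.01 of 0 in each line.

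The filter on the mean over the 6 libraries bears on which members could be counted as shared between lines. Of 12 members that moved lower in some line, 8 did so in each line: *S100a1*, *S100a16*, *Sprr1a*, *Ivl*, *Lce6a*, *Lce1f*, *Lce1g* and *Lce1h*. Of 11 that moved higher in some line, *Sprr2a3* and *Crct1* did so in each, and 5 moved in line 199 alone (*S100a4*, *S100a9*, *Sprr2j-ps*, *Sprr2k* and *Sprr1b*). Of these 5, *S100a9*, *Sprr2j-ps*, *Sprr2k* and *Sprr1b* passed the filter through line 199. *Sprr2a3*, *Crct1* and *Sprr2h*, with MEC means of 0.953, 0.390 and 0 FPKM, passed it through MEKO. *Ivl*, *Lce6a*, *Lce1f*, *Lce1g* and *Lce1h* passed it through MEC, so no difference in sharing can be read from these counts. No member moved higher in 1 line and lower in another. The lines share the same MEC controls, so the ratios are not independent of each other.

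Along the chromosome, the members that were lower in each line included a run of neighbors among the expressed entries. From *Sprr1a* to *Lce1h*, over 279 kb, 6 of the 13 entries were over 1 in some library, and these 6 moved lower in each line. The other 7 entries of the run never passed 1. *Ivl*, *Lce6a*, *Lce1f*, *Lce1g* and *Lce1h* passed the filter on the mean through MEC, so their shared direction was set by the filter. The ends of the run were chosen after the values were seen. *Sprr1b*, whose start is 47.1 kb before that of *Sprr1a* with *Sprr3*, at most 0.138 FPKM, between them, and the SPRR2 genes beyond it had no lower ratio past 1 in any line. *Crct1*, on the other side of the run, was higher in each line and had passed the filter through MEKO. Outside the complex, the 90 tested genes within 2 Mb had median log2 ratios of -0.02, -0.15 and -0.23 in lines 199, 233 and 336, and 8 of them fell. The median ratios over the 572 tested genes of chromosome 3 were -0.04, -0.12 and -0.32.

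**Figure D4:**
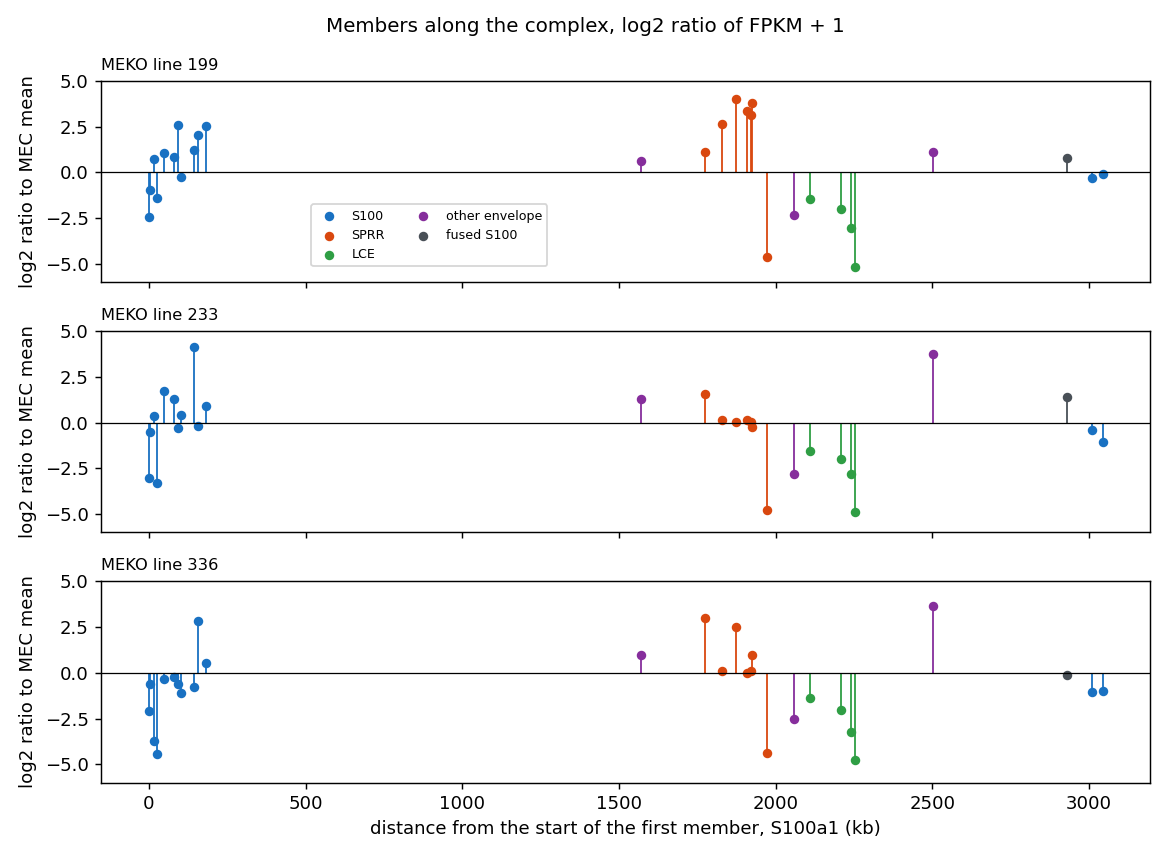
Log2 ratio of FPKM + 1 of each line to the MEC mean (y axis, 1 panel per line) for the 28 members over 1 in at least 1 library, by distance from the start of *S100a1* in kb (x axis) and colored by class. The run of negative values from *Sprr1a* to *Lce1h* is present in each panel. In it, *Ivl* and the LCE genes passed the filter on the mean through MEC. The SPRR values to its left are tallest in line 199 except for *Sprr2a3*, which is tallest in line 336.

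Genes of the surroundings and of the envelope outside the complex were read from lists. Of 15 genes inside or beside the complex that are not members, 6 were tested, and limma called 0 (0 at an unadjusted p under 0.05). *Pglyrp3*, a peptidoglycan recognition protein gene within the complex, was 9.79, 9.07 and 2.12 FPKM in MEC and 47.9, 25.5 and 5.25 in MEKO (adjusted p = 0.287 in limma). Line 336 was within the MEC range. Of 33 envelope and late keratinocyte genes elsewhere in the genome, 21 were tested, with a median log2 fold change of 0.61. *Tgm1*, the transglutaminase that cross-links SPRR proteins and involucrin, rose from 4.79, 5.80 and 4.48 FPKM in MEC to 18.5, 10.6 and 31.9 in lines 199, 233 and 336 (log2 fold change 1.70 ± 0.38, adjusted p = 0.0391 in limma). *Cnfn*, encoding cornifelin, was listed at 0 in MEC and was 2.46, 8.93 and 2.29 in MEKO (adjusted p = 0.0308 in limma). It passed the filter through MEKO, so it could only be called higher. *Krt4*, a keratin of wet stratified epithelia, fell from 21.04, 27.2 and 10.1 to 1.63, 1.09 and 1.47 (adjusted p = 0.00628 in limma). Of the keratins that define cornified epidermis, *Krt1* was at most 0.0221 and *Krt2* was listed at 0 in each library, and *Krt10* was 0.817, 0.833 and 0.813 in MEC and 1.43, 0.709 and 0.622 in MEKO.

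Regulators known to act on epidermal genes moved both ways. Of 27 tested, *Klf4* and *Hopx* rose, and genes that fell included *Gata3*, *Tfap2c*, *Jun* and *Fos*, with a median log2 fold change of -0.54 over the list. *Hopx*, with a MEC mean of 0.357 FPKM, passed the filter through MEKO. *Jun*, an AP1 subunit and a substrate of JNK, was 53.1, 58.9 and 60.3 FPKM in MEC and 10.5, 8.91 and 8.15 in MEKO (log2 fold change -2.53 ± 0.15, adjusted p = 0.000927 in limma). *Fos*, its partner, was 25.98, 23.4 and 27.2 in MEC and 3.83, 8.02 and 3.50 in MEKO (adjusted p = 0.00903 in limma). The other AP1 genes of the list were not called. Among them *Fosl1* was 10.4, 19.3 and 2.38 in MEC and higher in each line, at 23.2, 62.6 and 29.2 (adjusted p = 0.132 in limma). *Junb*, *Jund*, *Fosb* and *Fosl2* had negative log2 fold changes. *Klf4*, a factor for the epidermal barrier, was 10.0, 12.3 and 7.83 in MEC and 30.5, 29.5 and 16.1 in MEKO (adjusted p = 0.0487 in limma). Of 10 tested partners and relatives of S100 proteins outside the complex, *Cacybp*, which encodes the calcyclin-binding protein, rose (adjusted p = 0.0154 in limma), and *S100g*, a calcium-binding relative on another chromosome, fell (adjusted p = 0.00235 in limma). *S100g*, with a MEKO mean of 0.105 FPKM, passed the filter through MEC. *Anxa2*, encoding the partner of S100a10, was 961, 1115 and 568 in MEC and 693, 699 and 353 in MEKO (adjusted p = 0.321 in limma).

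Line 199, where *Sprr1b*, *Sprr2h*, *Sprr2k*, *Sprr2d* and *Sprr2j-ps* were highest, also differed from lines 233 and 336 in other genes. The basal keratins *Krt5* and *Krt14* were 608 and 521 FPKM in line 199, at most 15.3 and 24.0 in the other lines, and between 201 and 460 in MEC. For both keratins lines 233 and 336 were far below each MEC preparation, and line 199 was nearer to the MEC means. *Krt6a*, a keratin of activated keratinocytes, was 223 in line 199, 1.02 and 11.1 in lines 233 and 336, and 5.70 to 38.8 in MEC. The 9 fibroblast markers, all in the table, summed to 119 to 208 in MEC, 1111 in line 199, and 2.44 and 4.23 in lines 233 and 336. The sum in line 199 came mainly from *Col1a1* at 600 and *Col1a2* at 408, while *Dcn* was 0.311 and *Lum* 0.0264 there. Their part in the levels of these SPRR genes and *S100a4* was not tested. The epithelial list had 7 tested genes, of which *Epcam*, *Cdh1*, *Krt8* and *Krt19* fell.

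Within MEC, preparation 3 had the lowest value for 15 of the 24 tested members, 62.5%, against 39.3% of all tested entries. It was lowest for *Lce1h*, *Lce1g*, *Lce1f*, *Ivl*, *Crct1* and the 3 abundant S100 genes, but not for *Sprr1a* or *S100a1*. The 6 endothelial and fat cell markers summed to 19.2, 24.5 and 2.75 FPKM in MEC 1, 2 and 3 and to at most 1.43 in MEKO, and limma called 0 of the 3 tested (3 at an unadjusted p under 0.05). The part of these cells in the member levels was not tested.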

How the data were processed

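RNA from 3 MEC preparations and 3 MEKO lines was sequenced as paired-end reads of 150 bp. Per the labels, the authors aligned reads to GRCm38 with Bowtie2 and TopHat2 2.0.14 and quantified genes with Cufflinks 2.2.1 after trimming. The deposited table of the authors holds FPKM for 37755 entries, 2 of them without values. FPKM carry no read numbers, so no counting interval can be given and count-based tests were not used. Low members are measured with the least precision. Where a symbol was on several entries, that with the highest mean was used.

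The limma package 3.58.1 (R 4.3.3) was fitted to log2(FPKM + 1), allowing for a mean-variance trend, over entries with a mean of at least 1, and adjusted by Benjamini-Hochberg. Fold changes are on the log2(FPKM + 1) scale, which understates those of low genes. The smallest p of the exact permutation test (two-sided) with 3 against 3 is 0.1. It gave this value for the 13 tested members whose groups did not overlap. The method was tested on simulated data. The p-values measure the spread between preparations and between lines. The labels give no batch.

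Each member over FPKM 1 in at least 1 library is named, and other genes come from hand-written lists. The members and lists were chosen with earlier results of these data known. Genes of the lists are named where they were called, and others after their values were seen. Symbols of all 58 members matched GENCODE M21, promoters came from RefSeq, and shared sequence was counted as 75-base stretches of GENCODE transcripts. Protein sequences are not used here. Some genes of the lists are not reported here. Alternatives were a pseudocount of 0.1, other filters, quantile and upper-quartile normalization, no trend, sample weights, no fold threshold, and each library left out.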

Additional observations from a re-analysis of the deposited data

How the results depend on the processing

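The number of all entries called, 1234, was 738 with a filter at a mean FPKM of 5, 1978 with sample weights, and between 259 and 1966 when 1 library was left out. Members called higher, 0 as reported, were 1 with a pseudocount of 0.1, 1 with no expression filter, 2 with quantile normalization, 2 with sample weights, and 0 to 2 when 1 library was left out. Members called lower, 4 as reported, were 8 with sample weights and 2 to 6 when 1 library was left out. *Sprr2a3*, *Crct1*, *S100a8*, *Sprr2h* and, with no filter, *Lor* are the members called higher under some alternative, and *S100a16*, *Lce1f*, *Lce1g* and *S100a10* those called lower in addition. *S100a10* was called with sample weights alone. In that setting MEC 1 dominated, with a weight of 13.3 against 0.236 to 2.13 for the other libraries. Over FPKM 5, MEC 3 had 9 members, and over 0.1, line 336 had 30. Directions turned for *S100a14* (-1.48 to 0.75 when 1 library was left out, positive without line 336), *S100a4* (-0.29 to 1.31, negative without line 199, and -0.23 with sample weights) and *S100a6* (-0.59 to 0.17, positive without line 336), none of which was called. The cause was not tested, except that leaving out a library leaves fewer samples. Applying the alternatives to the called genes of the lists was chosen after seeing the data. No direction turned there, and *Klf4* lost its call in 10 of 14 alternatives, *Gata3* in 7, *Tgm1* in 6, *Hopx* in 4 of 13 and *Cnfn* in 3 of 12. No paired analysis was possible because the groups share no replicate number. What depth limits is the low members: 17 entries above 0 never passed 1 FPKM and their read numbers are unknown.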
